A study of Arabidopsis thaliana with 9 samples.

Results

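In Arabidopsis thaliana, the nuclear loci AT3G15920, CPA (AT3G05520) and AT1G06227 carried a large part of the small RNA reads counted over the listed genes and lay across from annotated tRNA or small nucleolar RNA (snoRNA) genes on the other strand. These 3 of the 37336 listed genes were chosen by their high normalized reads in these same 9 libraries and by the structural RNA gene opposite. Their levels, shares of the reads over listed genes and replicate spread are therefore a description, with no test of abundance. Libraries of small RNA (17 to 30 nt, cut from a gel) were made from plants of 3 genotypes grown on soil, 3 libraries each, to compare small RNA levels in 2 mutants with those in Col-0 (LUC). The groups were rls6, prors1 (LUC) and Col-0 (LUC), the last on the standard laboratory accession. What LUC stands for and which change rls6 carries are not stated in the labels, whose source field names the rls6 plants rbp-ko-2 and the prors1 (LUC) plants rbp-ko-1. As background, PRORS1 encodes the prolyl-tRNA synthetase of chloroplasts and mitochondria, and the series is titled after the RNA-binding protein RBP45D. All plants had 16 h of light and 8 h of dark and an age of 25 days in the growth protocol, against 26 days in the source field. No treatment is named, and nothing says that the 3 libraries of a genotype are separate plants or pools. P-values therefore measure only the spread between these libraries, which may be technical. Small RNA reads do not measure mRNA and check neither the genotype nor the tissue.

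AT3G15920 encodes a protein with a Phox (PX) domain, a module that binds phosphoinositide lipids of membranes. CPA encodes one subunit of the actin capping protein, a heterodimer with CPB that binds the barbed end of actin filaments. AT1G06227 is annotated as a long non-coding RNA and natural antisense transcript. Transfer RNAs bring amino acids to the ribosome, and box C/D snoRNAs guide 2′-O-methylation of ribosomal RNA in the nucleolus. Both kinds of RNA are made in large amounts and are known sources of short fragments in plant small RNA libraries.

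The sequences of the facing RNA genes are shown because they are what the 3 loci have in common, each as the RNA gene's own strand from the RefSeq TAIR10.1 genome. Capitals mark the first TGATGA (box C letters) and the last CTGA (box D letters) of a snoRNA, or the anticodon of the tRNA.
tRNA-Glu AT3G05525 (opposite CPA, chr3:1601338-1601409, minus strand): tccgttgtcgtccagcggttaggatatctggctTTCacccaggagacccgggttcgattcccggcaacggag
AtU31a AT1G06233 (opposite AT1G06227, chr1:10300351-10300453, plus strand): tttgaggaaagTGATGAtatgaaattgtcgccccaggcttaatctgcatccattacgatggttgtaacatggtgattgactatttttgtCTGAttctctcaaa
AtsnoR4a AT1G06237 (opposite AT1G06227, chr1:10300489-10300565, plus strand): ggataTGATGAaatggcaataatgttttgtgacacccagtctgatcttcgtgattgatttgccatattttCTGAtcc
AtU33a AT1G06243 (opposite AT1G06227, chr1:10300619-10300699, plus strand): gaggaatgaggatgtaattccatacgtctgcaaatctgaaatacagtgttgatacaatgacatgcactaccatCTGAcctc
snoR121 AT3G03175 (opposite AT3G15920, chr3:5387184-5387268, plus strand), first 25 bases: agcggtgaagatagaacaaattatg
snoR121 AT3G03175, last 25 bases: gacgatagcaagtgccgtCTGAgct
Searched over the whole genes, the letters TGATGA were present in AtU31a and AtsnoR4a and not in snoR121 or AtU33a, while CTGA was found near the 3′ end of all 4 snoRNA genes. Over the 287 annotated snoRNA genes, 49.8% held TGATGA on their own strand and 3.48% on the other strand. For CTGA these shares were 81.5% and 36.9%. A match of letters is a description and not a tested box.

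The 3 loci differ in where the facing gene lies. AT3G15920 spans chr3:5383595-5390219 on the minus strand, and all 85 bases of snoR121 fall in its annotated exon sequence upstream of the coding part, starting 2952 bases from the 5′ end of the locus. The pentatricopeptide repeat gene AT3G15930 also lies opposite that region. CPA spans chr3:1598449-1601437 on the plus strand, and all 72 bases of the tRNA-Glu gene fall in its exons and in its annotated coding sequence, 2890 bases from the 5′ end. AT1G06227 spans chr1:10300193-10300716 on the minus strand and is a single exon of 524 bases, with 3 whole snoRNA genes inside. Its first 86 bases also lie opposite the protein-coding gene AT1G29418.

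**Figure D1:**
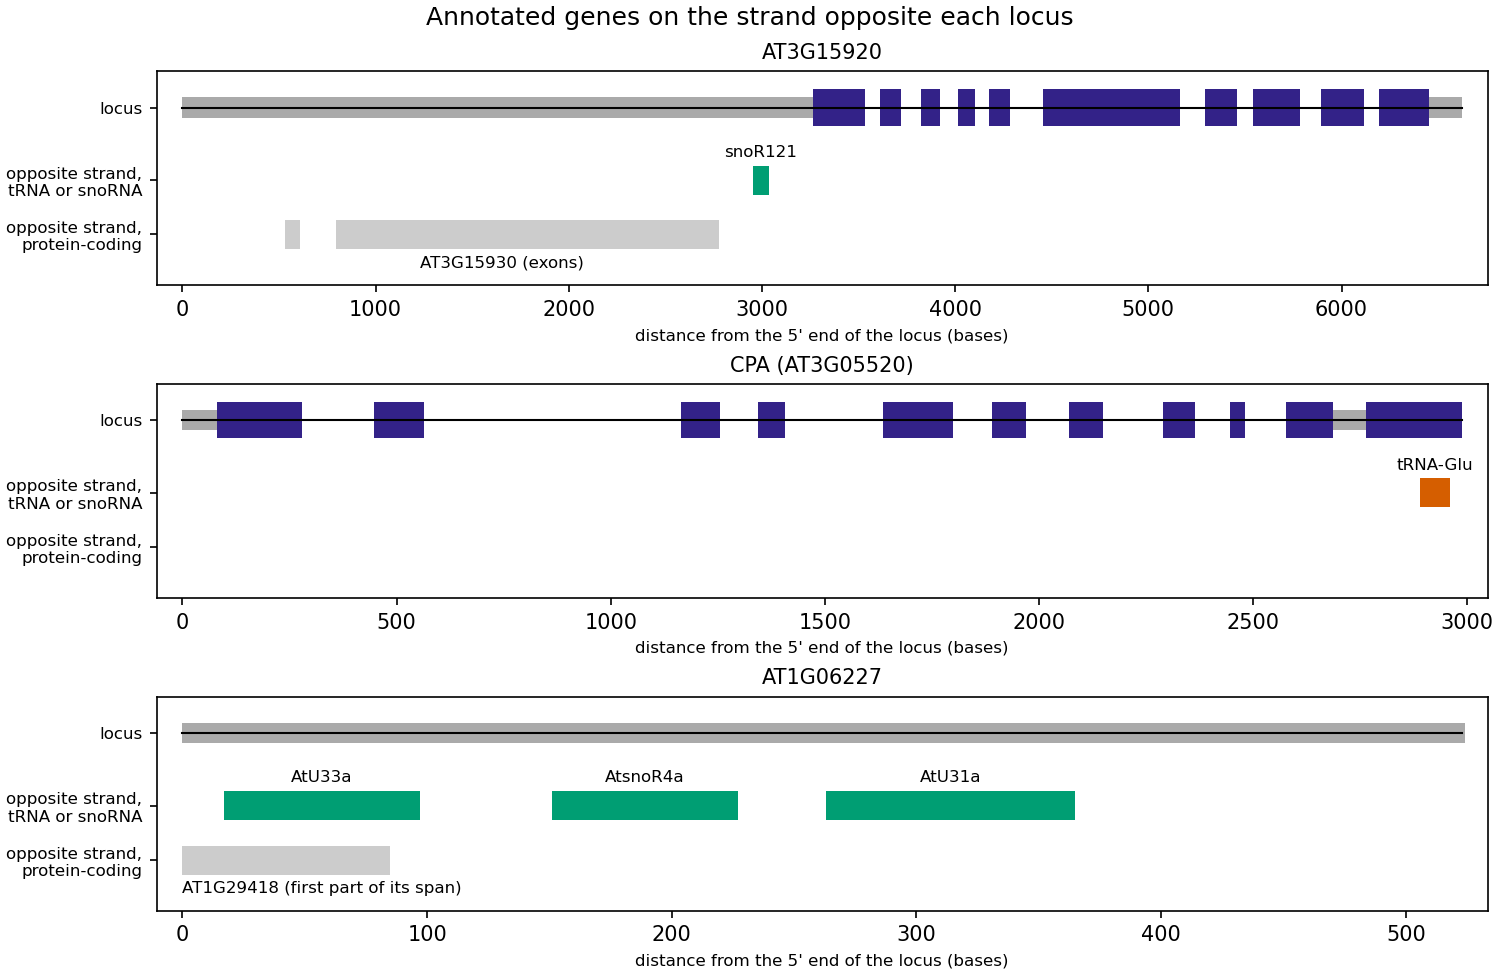
The map of the 3 loci shows annotated exons (grey), coding parts (dark blue) and the genes on the opposite strand (orange for tRNA, green for snoRNA, light grey for protein-coding), with distance from the 5′ end of the locus in bases on the horizontal axis. The snoR121 gene lies upstream of the coding part of AT3G15920, the tRNA-Glu gene in the last coding exon of CPA, and 3 snoRNA genes inside AT1G06227.

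Reads were listed almost wholly under the 3 loci and not under the facing RNA genes. Over all 9 libraries AT3G15920 had 973137 reads and snoR121 had 16, with at most 4 in a library. CPA had 245601 reads and its tRNA-Glu gene had 7. AT1G06227 had 122420 reads, against 1 for AtU31a, 1 for AtsnoR4a and 7 for AtU33a. The other genes opposite were as low, with 0 reads for AT3G15930 and 2 for AT1G29418. Whether the authors counted reads by strand is not given in the sources used here, so reads of a locus and of the gene opposite to it cannot be told apart. The deposited data give 1 value per gene, so where inside a locus the reads lie was not measured.

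Relatives of the proteins did not share the abundance. CPB (AT1G71790), the partner subunit of CPA, had 0 reads in all 9 libraries. The PX-domain genes AT4G32160 and AT2G25350 had 3 reads each. All 3 were too low for the test.

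AT3G15920 ranked first of all 37336 genes by mean normalized reads, which are reads divided by the size factor of their library. Its normalized reads were 78329, 103125 and 111806 in rls6 and 148685, 77851 and 125738 in prors1 (LUC), against 72470, 87789 and 127905 in Col-0 (LUC). The values of the 3 genotypes overlapped throughout, and the highest library of each genotype lay above the lowest library of both others. Shares below are of the reads that a library has over the listed genes, since reads elsewhere are not in the table. AT3G15920 took 13.05%, 16.1% and 17.4% in rls6, 22.3%, 13.2% and 19.6% in prors1 (LUC), against 13.6%, 15.6% and 20.4% in Col-0 (LUC). Thus the share of prors1 (LUC) replicate 2 was near the lowest of rls6 and Col-0 (LUC), while that of replicate 1 was the highest of all libraries.

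CPA ranked second. Its normalized reads were 19682, 25770 and 21752 in rls6 and 43070, 37428 and 38801 in prors1 (LUC), against 10263, 16404 and 25146 in Col-0 (LUC). All 3 prors1 (LUC) libraries lay above all others, while those of rls6 and Col-0 (LUC) overlapped. The shares were 3.28%, 4.02% and 3.38% in rls6 and 6.46%, 6.35% and 6.06% in prors1 (LUC), against 1.93%, 2.91% and 4.00% in Col-0 (LUC).

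AT1G06227 ranked 6th, below the trans-acting siRNA loci TAS1C, TAS2 and TAS1A. Its normalized reads were 9553, 13052 and 14224 in rls6 and 16085, 9197 and 15777 in prors1 (LUC), against 7065, 10908 and 22093 in Col-0 (LUC). Col-0 (LUC) held both the lowest and the highest library, so the other genotypes lay inside its range. The shares were 1.59%, 2.04% and 2.21% in rls6 and 2.41%, 1.56% and 2.46% in prors1 (LUC), against 1.33%, 1.93% and 3.52% in Col-0 (LUC).

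**Figure D2:**
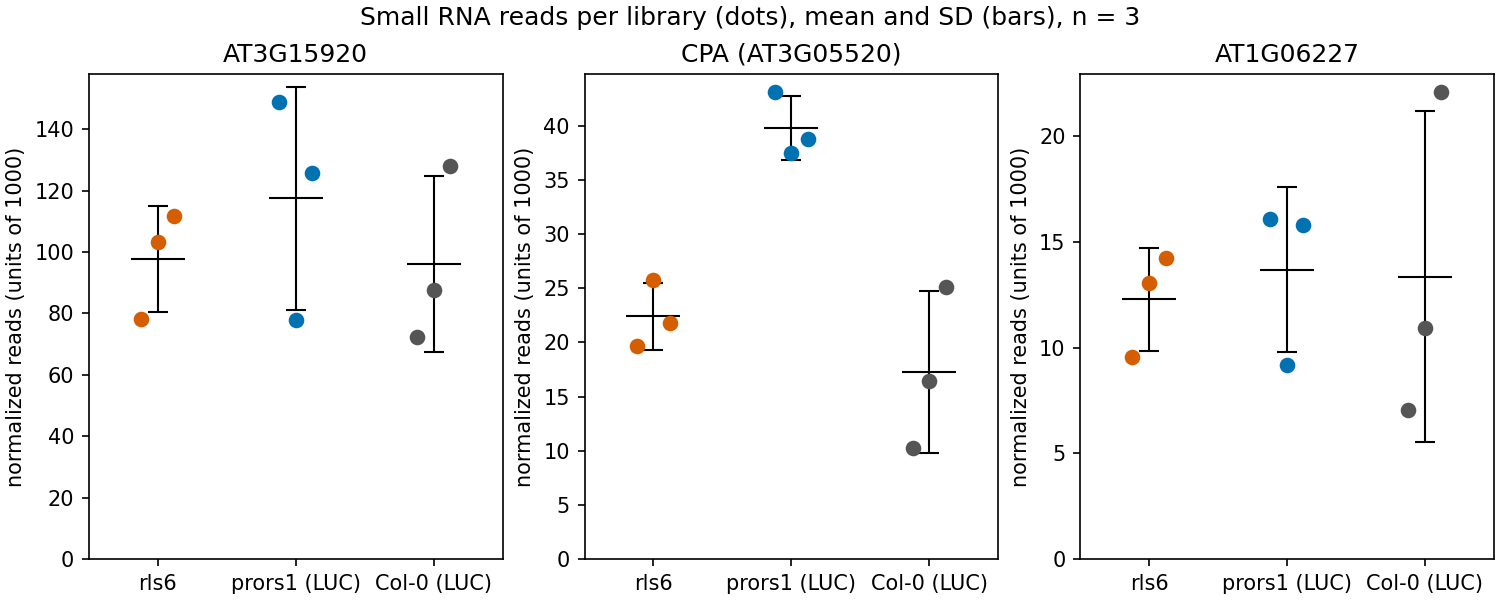
The plot of normalized reads (vertical axis, starting at 0) shows each library as a dot and the mean and SD of each genotype as bars, for the 3 loci. The prors1 (LUC) dots of CPA sit between 37428 and 43070 normalized reads, above all rls6 and Col-0 (LUC) dots, while the genotypes overlap at the remaining loci.

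Together the 3 loci took 21.01 ± 2.71% of the reads over listed genes in rls6 and 26.8 ± 5.15% in prors1 (LUC), against 21.7 ± 5.61% in Col-0 (LUC) (SD, n = 3 each). Single libraries ranged from 16.9% to 31.2%, and the 3 loci held 23.1% of these reads over the 9 libraries. The libraries had 611238 to 702303 reads over genes, with reads at 13649 to 15793 genes.

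**Figure D3:**
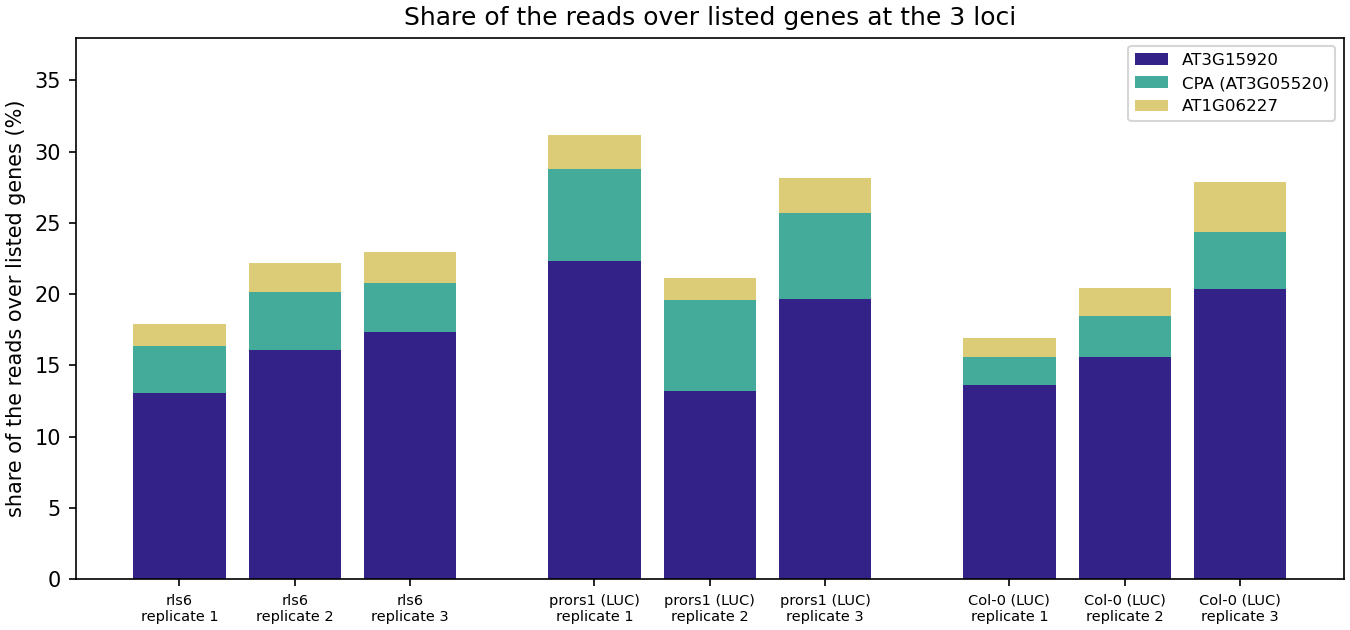
The stacked bars give the share of each library's reads over listed genes (%, vertical axis) at AT3G15920, CPA and AT1G06227, for replicates 1 to 3 of each genotype. The CPA segment is 6.06% to 6.46% in prors1 (LUC) and at most 4.02% in any other library.

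Per kilobase of annotated exon the order of the loci changed, since AT3G15920 has 5705 exon bases, CPA 1392 and AT1G06227 524. AT1G06227 had 23427 ± 4638 normalized reads per kilobase in rls6 and 26119 ± 7425 in prors1 (LUC), against 25487 ± 14899 in Col-0 (LUC). AT3G15920 had 17135 ± 3045 in rls6 and 20583 ± 6335 in prors1 (LUC), against 16837 ± 5018 in Col-0 (LUC). CPA had 16093 ± 2224 in rls6 and 28568 ± 2114 in prors1 (LUC), against 12407 ± 5373 in Col-0 (LUC). On this scale the ranges of the 3 loci overlapped in rls6 and in Col-0 (LUC), while in prors1 (LUC) all CPA libraries lay above all AT3G15920 libraries. Where in a locus the reads lie was not measured, so exon length need not describe their density.

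Read counts this high left little counting error, yet the replicates lay far apart. The coefficient of variation (CV) of AT3G15920 was 17.8% in rls6 and 30.8% in prors1 (LUC), against 29.8% in Col-0 (LUC). Counting alone gives about 0.312% in rls6. For AT1G06227 it was 19.8% in rls6 and 28.4% in prors1 (LUC), against 58.5% in Col-0 (LUC). CPA was least variable in prors1 (LUC), with 13.8% in rls6 and 7.40% in prors1 (LUC), against 43.3% in Col-0 (LUC). Among the 100 most abundant loci the median CV within genotypes was 7.65%. AT1G06227 stood at 39.2% (rank 1 from the most variable), AT3G15920 at 26.8% (rank 3) and CPA at 26.6% (rank 4). Of the siRNA loci, TAS1A, next to AT1G06227 in read number, stood at 22.6% (rank 7) and TAS3 at 12.9% (rank 25), while TAS2 and TAS1C stood at 5.95% and 5.56%. AGO2 (AT1G31280), the gene of an Argonaute protein that binds small RNA, stood at 19.9% (rank 10).

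AT3G15920 and AT1G06227 moved together between libraries. On log2(normalized reads + 1) over the 9 libraries, Pearson's r was 0.914 (exact permutation p = 0.000719, adjusted over 3 relations p = 0.00216) and Spearman's rho 0.983 (exact permutation p = 4.96e-05, adjusted p = 0.000149). Without the 2 libraries farthest from the median of AT3G15920 r was 0.948, and for deviations from genotype means it was 0.932. The libraries share their size factor between both loci, so a library-wide shift enters both values. The ratio of their reads is free of that factor and spanned 7.86 to 8.20 in rls6, 7.97 to 9.24 in prors1 (LUC) and 5.79 to 10.3 in Col-0 (LUC).

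The correlations of CPA with the other loci were smaller, a difference that was not tested. Its r with AT3G15920 was 0.640 (exact permutation p = 0.0634, adjusted p = 0.0951; rho 0.633, exact permutation p = 0.0760, adjusted p = 0.114), and 0.248 without the 2 farthest libraries. With AT1G06227 its r was 0.570 (exact permutation p = 0.109, adjusted p = 0.109; rho 0.567, exact permutation p = 0.121, adjusted p = 0.121), and 0.142 without the 2 farthest libraries of CPA. Once genotype means were taken off, r was 0.718 with AT3G15920 and 0.885 with AT1G06227.

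The loci whose profile over the 9 libraries was most like each of the 3 were sought among 1769 other tested loci with a mean of at least 50 normalized reads. For AT3G15920 these were AT1G06227 (r = 0.914), the trans-acting siRNA locus TAS3 (0.891) and the pseudogene AT4G26360 (0.842). For AT1G06227 they were AT3G15920, TAS3 (0.884) and AT4G26360 (0.841). For CPA they were the pseudogene AT2G09870 (0.955), HS1 (0.950) and AT1G73650 (0.934). None of these 3 was among those of AT3G15920 or AT1G06227, but short lists from so many loci need not overlap. These r values are the highest of a search over 1769 loci with 9 libraries, and no test allowed for that search. HS1, a heat-stable protein gene, averaged 47.7 normalized reads in rls6 and 152.6 in prors1 (LUC), against 33.9 in Col-0 (LUC).

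The genotype comparisons used limma on log2(normalized reads + 1) over 4766 genes, called at a Benjamini-Hochberg adjusted p under 0.05. All 3 loci passed the filter on low values in every library. Each adjusted p without another tool named is from that fit. The comparisons with Col-0 (LUC) share the Col-0 (LUC) libraries, and those with prors1 (LUC) share its libraries, so they are not independent of each other. In RNA taken from plants, fewer cells that make a small RNA and less of it per cell cannot be told apart.

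In rls6 against Col-0 (LUC), none of the 3 loci passed the test, where 17.6% of tested genes did. None passed by edgeR, which called 18.4% of genes, or by DESeq2, which called 12.1%. At none of the 3 loci were the groups free of overlap, as they were for 32.5% of tested genes. Before adjustment the limma p of CPA was 0.0437. The share of all tested genes under 0.05 before adjustment was not counted, so no weight is put on that value. CPA averaged 22402 ± 3096 normalized reads in rls6 and 17271 ± 7479 in Col-0 (LUC) (SD, n = 3 each), a log2 fold change of 0.46 ± 0.22 (SE, 95% interval 0.01 to 0.91, adjusted p = 0.160). Without Col-0 (LUC) replicate 3, the highest of its group, the value was 0.78 and passed the test (adjusted p = 0.00264). Over 23 alternatives the adjusted p ranged from 0.00264 to 0.726. Here and below, the 23 leave out the planned fit with no filter and a trend, which is given in the last part. AT3G15920 averaged 97753 ± 17373 in rls6 and 96055 ± 28627 in Col-0 (LUC), a log2 fold change of 0.05 (95% interval -0.49 to 0.59, adjusted p = 0.939). AT1G06227 averaged 12276 ± 2430 in rls6 and 13355 ± 7807 in Col-0 (LUC), a log2 fold change of 0.02 (95% interval -0.54 to 0.58, adjusted p = 0.977). The signs of AT3G15920 and AT1G06227 changed with the scaling of the libraries, and their intervals reach from a fold of 0.687 to 1.50.

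In prors1 (LUC) against Col-0 (LUC), CPA rose and the remaining loci did not pass the test, where 14.4% of tested genes did and 7.74% were higher. CPA averaged 39766 ± 2942 normalized reads in prors1 (LUC), against 17271 ± 7479 in Col-0 (LUC) (SD, n = 3 each), a ratio of 2.30. Its log2 fold change was 1.29 ± 0.22 (SE, 95% interval 0.85 to 1.74, adjusted p = 0.000163), higher in 3 of 3 libraries. The groups did not overlap, as for 27.5% of tested genes. A two-sided exact permutation test of 3 against 3 libraries had p = 0.1, its smallest possible value. In the authors' deposited table, whose unnamed comparison followed prors1 (LUC) over Col-0 (LUC), CPA had a log2 fold change of 1.09 ± 0.25 (SE) with a DESeq2 adjusted p of 0.000370. The call was made in 22 of 23 alternatives, edgeR (which called 14.2% of genes) and DESeq2 (7.62%) among them, with adjusted p from 5.43e-07 to 0.166.

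The strength of that call depends on how replicate spread is estimated. The residual SD of CPA on the log2 scale was 0.395, while the trend over all genes gave 0.191 for a locus of its level, and limma's fit lies between them. With robust shrinkage, which leans less on the trend for such genes, the adjusted p was 0.0424, and with no filter on low values and no trend it was 0.166. For AT1G06227 the gap was wider, with a residual SD of 0.574 against 0.164, and for AT3G15920 it was 0.400 against 0.279.

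AT3G15920 averaged 117424 ± 36141 normalized reads in prors1 (LUC), against 96055 ± 28627 in Col-0 (LUC), a log2 fold change of 0.28 (95% interval -0.26 to 0.82, adjusted p = 0.560). AT1G06227 averaged 13686 ± 3891 in prors1 (LUC), against 13355 ± 7807 in Col-0 (LUC), a log2 fold change of 0.15 (95% interval -0.41 to 0.71, adjusted p = 0.791). In the authors' deposited table the log2 values were 0.26 ± 0.25 (SE, DESeq2 adjusted p = 0.783) and 0.03 ± 0.34 (DESeq2 adjusted p = 0.991). Counting alone gives a CV of under 1% at these loci, so depth was not what limited these comparisons.

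In rls6 against prors1 (LUC), CPA fell, where 16.8% of tested genes passed the test and 5.16% were lower. CPA averaged 22402 ± 3096 normalized reads in rls6 and 39766 ± 2942 in prors1 (LUC), a ratio of 0.563. The log2 fold change was -0.83 ± 0.22 (SE, 95% interval -1.28 to -0.39, adjusted p = 0.00825), lower in 3 of 3 libraries. The groups did not overlap, as for 33.6% of tested genes (exact permutation p = 0.1, two-sided, the smallest possible). This call was made in 18 of 23 alternatives (adjusted p from 6.68e-05 to 0.567). It was made with edgeR, which called 16.7% of genes. It was lost with DESeq2 (adjusted p = 0.0754, 10.4% of genes called), with limma without a trend (0.0871), with robust shrinkage (0.143), with no filter and no trend (0.567) and without rls6 replicate 1 (log2 -0.75, adjusted p = 0.0648). AT3G15920 averaged 97753 ± 17373 in rls6 and 117424 ± 36141 in prors1 (LUC), a log2 fold change of -0.23 (95% interval -0.77 to 0.31, adjusted p = 0.618). AT1G06227 averaged 12276 ± 2430 in rls6 and 13686 ± 3891 in prors1 (LUC), a log2 fold change of -0.13 (95% interval -0.69 to 0.43, adjusted p = 0.801).

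**Figure D4:**
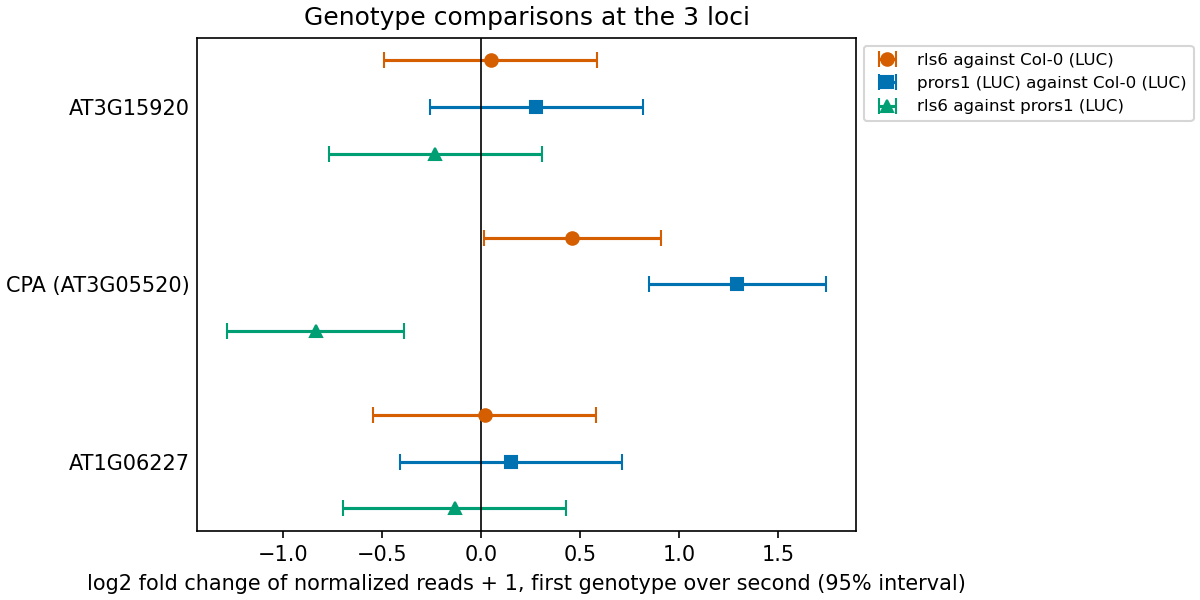
Log2 fold changes of normalized reads + 1 (horizontal axis, first genotype over second, with 95% intervals) are shown for the 3 loci in the 3 comparisons. The interval of CPA lies above 0 in prors1 (LUC) against Col-0 (LUC) (0.85 to 1.74) and below 0 in rls6 against prors1 (LUC) (-1.28 to -0.39), while all 6 intervals of the remaining loci include 0.

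Ratios between the loci within a library do not depend on the size factor. CPA reads over AT1G06227 reads were 2.06, 1.97 and 1.53 in rls6 and 2.68, 4.07 and 2.46 in prors1 (LUC), against 1.45, 1.50 and 1.14 in Col-0 (LUC). All prors1 (LUC) ratios lay above those of the other genotypes, and the rls6 ratios lay above those of Col-0 (LUC). AT3G15920 reads over CPA reads were 3.98, 4.00 and 5.14 in rls6 and 3.45, 2.08 and 3.24 in prors1 (LUC), against 7.06, 5.35 and 5.09 in Col-0 (LUC). Here the prors1 (LUC) ratios were the lowest, and those of rls6 and Col-0 (LUC) overlapped. The 5 comparisons without overlap each had an exact permutation p of 0.1, the smallest possible, and 0.180 after adjustment over 9 tests. A ratio compares the loci with each other and does not say which of them changed.

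The facing sequences differ in how many places of the genome they match. All 65 windows of 21 bases in snoR121 occurred once in the TAIR10.1 genome, counting both strands. In the tRNA-Glu gene 9 of 52 windows did (17.3%), and a single window occurred up to 27 times. The shares were 42 of 83 in AtU31a, 28 of 57 in AtsnoR4a and 50 of 61 in AtU33a. How the authors treated reads that match several places is not given in the sources used here. A read with the letters of most of the tRNA-Glu gene therefore cannot be assigned to the CPA locus from its sequence alone.

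The repeated windows of the 3 snoRNA genes inside AT1G06227 lay at a second cluster of the same snoRNAs, AtU31b, AtsnoR4b and AtU33b, between positions 10308767 and 10309092 of chromosome 1. That cluster lies on the same strand as the gene around it, the uncharacterized protein-coding gene AT1G29465. AT1G06227 averaged 13106 normalized reads, against 0.313 for AT1G29465, and the 3 snoRNA genes of the second cluster had 0 reads. The 2 clusters share much sequence. Their surrounding loci differ in strand relative to the snoRNA genes, and also in kind, a long non-coding RNA against a protein-coding gene. What the difference in reads goes with was not tested.

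The reference holds 24 nuclear tRNA-Glu genes, 10 of them with the TTC anticodon of AT3G05525 and 13 with CTC. AT3G05525 differed by 2 bases from each of the other 9 TTC genes and shared up to 43 of its 52 windows with 1 of them. Overlapping loci were found at 5 of the 24. CPA averaged 26480 normalized reads, AT3G51140 had 373, AT2G07683 had 98.0 and AT5G27710 had 0.440, all with the tRNA gene on the opposite strand. AT5G45720, on the same strand as its tRNA-Glu gene, had 0.219. The tRNA-Glu genes themselves averaged at most 2.86. The tRNA-Glu gene facing AT5G27710, the locus with 0.440, shares 41 windows with AT3G05525. Where the reads of CPA lie was not measured, and the source of the difference between these loci was not tested.

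Beyond the 3 loci, 53 other nuclear loci had at least 1 base of a nuclear tRNA or snoRNA gene on the opposite strand. Of these, 13 averaged at least 10 normalized reads (24.5%), and their median over all 53 was 1.67. Of 97 loci with such a gene on the same strand, 1 averaged at least 10 (1.03%) and the median was 0.331. Over all other listed genes, 11.9% averaged at least 10, with a median of 0.305. Loci facing tRNA genes lay nearer to all other genes, with 15.2% averaging at least 10 and a median of 0.699 over 33 loci. On the same strand as a tRNA gene these values were 4.55% and 0.370 over 22 loci. The contrast was larger for snoRNA genes, with 40.0% and a median of 4.80 over 20 loci on the opposite strand. On the same strand as a snoRNA gene they were 0% and 0.331 over 75 loci. These are descriptions, and loci were not matched for length or expression. The 53 loci together held 0.419% of the reads over listed genes. AT1G06227, the lowest of the 3 loci, averaged 13106 normalized reads, against 1085 for SPP2, the next most abundant locus facing such a gene.

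The nuclear tRNA and snoRNA genes themselves were low throughout. Of 625 nuclear tRNA genes the highest mean was 18.5 normalized reads, and of 287 nuclear snoRNA genes it was 48.5. Only 3 of these tRNA and 4 of these snoRNA genes had enough reads to be tested. The RNA genes of chloroplasts and mitochondria are not in these lists, and their levels are not described here.

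**Figure D5:**
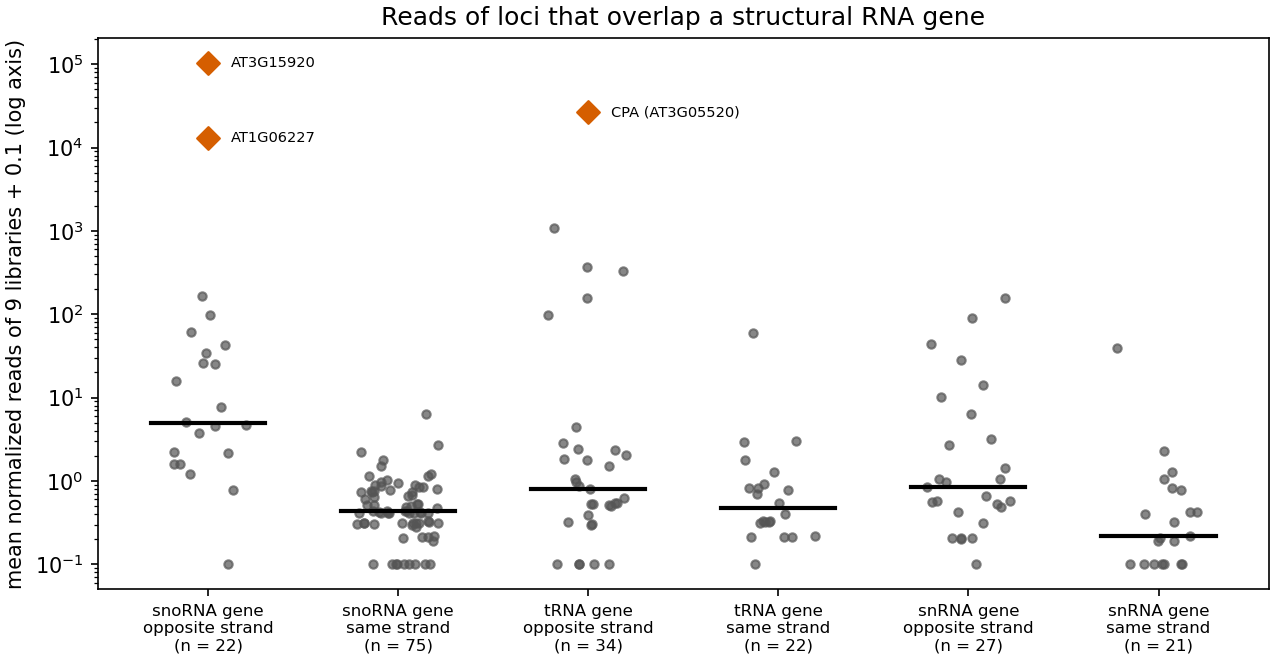
Mean normalized reads of the 9 libraries plus 0.1 (vertical log axis) are shown for loci that overlap a snoRNA, tRNA or snRNA gene on the opposite or the same strand, each locus a dot, with black lines at the median of the grey dots. The 3 diamonds are AT3G15920, AT1G06227 and CPA, which lie above all grey dots, and the snoRNA median is 4.80 (opposite) against 0.331 (same strand). The tRNA median is 0.699 (opposite) against 0.370 (same strand).

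Among the other facing loci, those called against Col-0 (LUC) were lower in the mutants where they face snoRNA genes, under each scaling tried. Where they face tRNA genes they were higher, except that AT3G51140 was called lower in both mutants with total reads as the scale and in rls6 with totals without the 3 loci. Of 5 tested loci facing tRNA genes, 3 were higher and 0 lower in rls6 against Col-0 (LUC), 3 and 0 in prors1 (LUC) against Col-0 (LUC), and 2 and 1 in rls6 against prors1 (LUC). Their median log2 fold changes were 0.32, 0.57 and 0.09 in the same order, with -0.02, 0.01 and -0.02 over all other tested genes. Of 9 tested loci facing snoRNA genes, 0 were higher and 3 lower in rls6 against Col-0 (LUC), 0 and 5 in prors1 (LUC) against Col-0 (LUC), and 2 and 0 in rls6 against prors1 (LUC). Their medians were -0.52, -0.58 and 0.08. With the whole RNA gene required inside the locus, 3 loci facing tRNA genes were tested. Of them 2 were higher and 0 lower in rls6 against Col-0 (LUC), 2 and 0 in prors1 (LUC) against Col-0 (LUC), and 0 and 1 in rls6 against prors1 (LUC). For 8 such loci facing snoRNA genes the counts were 0 and 3, 0 and 4, and 2 and 0 in the same order. Among all tested genes 12.7% were higher and 4.95% lower in rls6 against Col-0 (LUC), 7.74% and 6.63% in prors1 (LUC) against Col-0 (LUC), and 11.7% and 5.16% in rls6 against prors1 (LUC). The split over all tested genes moved with the scaling of the libraries. In rls6 against Col-0 (LUC) 605 genes were higher and 236 lower, against 462 and 414 with total reads as the scale, 493 and 592 with totals without the 3 loci and 525 and 434 with upper quartiles. In prors1 (LUC) against Col-0 (LUC) 369 were higher and 316 lower, against 210 and 454 with total reads. In rls6 against prors1 (LUC) 556 were higher and 246 lower, against 449 and 487 with totals without the 3 loci and 482 and 401 with upper quartiles. The lists are short, and the difference between them was not tested.

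SPP2 (AT3G52340), which encodes a sucrose-phosphate phosphatase and faces a tRNA-Cys gene, had the same order of genotypes as CPA. Its normalized reads were 929, 917 and 912 in rls6 and 1784, 1332 and 1686 in prors1 (LUC), against 756, 663 and 791 in Col-0 (LUC). The 3 groups did not overlap. Against Col-0 (LUC) the log2 fold change was 0.32 in rls6 (adjusted p = 0.0333) and 1.11 in prors1 (LUC) (adjusted p = 5.24e-08). The call in rls6 was lost with total reads (adjusted p = 0.278), totals without the 3 loci (0.241) and upper quartiles (0.126). Between the mutants, rls6 over prors1 (LUC), it was -0.79 (adjusted p = 4.91e-06).

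Other loci facing tRNA genes did not share that order. Of those named here, AT3G05760 and AT1G43830 overlap only part of their tRNA gene. AT3G05760, a zinc finger protein gene facing a tRNA-Pro gene, averaged 490 ± 164 normalized reads in rls6 and 319 ± 43.6 in prors1 (LUC), against 181 ± 18.0 in Col-0 (LUC). Both mutants were higher than Col-0 (LUC), with log2 fold changes of 1.39 for rls6 (adjusted p = 3.04e-07) and 0.81 for prors1 (LUC) (adjusted p = 0.000796). For rls6 over prors1 (LUC) the log2 fold change was 0.58 (adjusted p = 0.0117). AT2G07683 is a pseudogene facing tRNA-Glu and tRNA-Tyr genes. Its facing tRNA-Glu gene differs by 24 bases from AT3G05525 and shares 0 windows of 21 bases with it. Whether the reads of AT2G07683 match other places of the genome was not measured. AT2G07683 averaged 115 ± 14.7 in rls6 and 107 ± 9.23 in prors1 (LUC), against 72.7 ± 14.9 in Col-0 (LUC). Both differences from Col-0 (LUC) passed the test, with log2 fold changes of 0.66 in rls6 (adjusted p = 0.00193) and 0.57 in prors1 (LUC) (adjusted p = 0.0106), the last of them lost with total reads as the scale (0.0653). AT3G51140, a DnaJ-related gene facing a tRNA-Glu gene, averaged 349 ± 7.36 in rls6 and 342 ± 94.4 in prors1 (LUC), against 429 ± 54.4 in Col-0 (LUC), and passed the test in no comparison. With total reads as the scale it did, at log2 -0.42 in rls6 (adjusted p = 0.0223) and -0.49 in prors1 (LUC) (0.00931), each against Col-0 (LUC), and with totals without the 3 loci it did in rls6 (-0.43, adjusted p = 0.0240). AT1G43830, a pseudogene facing a tRNA-Asp gene, averaged 182 ± 6.16 in rls6 and 143 ± 17.2 in prors1 (LUC), against 148 ± 20.9 in Col-0 (LUC). It was called in rls6 over prors1 (LUC) alone, with a log2 fold change of 0.36 (adjusted p = 0.0458), a call lost with total reads (0.108), totals without the 3 loci (0.152) and upper quartiles (0.113).

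The 2 most abundant of the other loci facing snoRNA genes were lower in both mutants than in Col-0 (LUC). AT5G01155, a long non-coding RNA facing a pair of snoRNA genes, had 160, 154 and 154 normalized reads in rls6 and 129, 100.2 and 125 in prors1 (LUC), against 204, 241 and 226 in Col-0 (LUC). No group overlapped another, and the log2 fold change was -0.52 in rls6 (adjusted p = 0.00207) and -0.92 in prors1 (LUC) (adjusted p = 4.11e-06), each against Col-0 (LUC). For rls6 over prors1 (LUC) it was 0.40 (adjusted p = 0.0169), a call lost with totals without the 3 loci (0.0709). AT4G06695, another long non-coding RNA facing a snoRNA gene, averaged 67.6 ± 19.2 in rls6 and 78.5 ± 17.4 in prors1 (LUC), against 149.9 ± 50.0 in Col-0 (LUC). Its log2 fold change was -1.11 in rls6 (adjusted p = 0.000558) and -0.89 in prors1 (LUC) (adjusted p = 0.00700), each against Col-0 (LUC). AT3G15920 and AT1G06227, which also face snoRNA genes, passed the test in no comparison.

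Of the other loci among the 10 most abundant that overlap a structural RNA gene, AT1G16820 and AT3G25450 face snRNA genes. AT1G16820 averaged 118 ± 14.0 normalized reads in rls6 and 157 ± 27.6 in prors1 (LUC), against 191 ± 53.9 in Col-0 (LUC). It was lower in rls6 than in Col-0 (LUC), with a log2 fold change of -0.66 (adjusted p = 0.00384). AT3G25450 averaged 80.9 ± 17.4 in rls6 and 90.1 ± 17.8 in prors1 (LUC), against 98.2 ± 16.6 in Col-0 (LUC). AT3G06355, a long non-coding RNA on the same strand as a 5.8S ribosomal RNA gene, averaged 232 ± 13.6 in rls6 and 309 ± 26.2 in prors1 (LUC), against 261 ± 25.3 in Col-0 (LUC). It was lower in rls6 than in prors1 (LUC), with a log2 fold change of -0.41 (adjusted p = 0.00645).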

How the data were processed

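Small RNA was measured in 9 libraries. TAIR10, Bowtie2, featureCounts, Trimmomatic and FastQC are named in the submitters' processing notes, without versions, and the sources used here do not state how strand or reads with several places were handled. The deposited signal values are read counts divided by a size factor per library (0.950 to 1.24). All values (100%) were whole multiples of 1 read within 1e-06, so reads were recovered. The authors' deposited log2 fold changes, standard errors, p-values and Wald score come from DESeq2, per the file headers and name, which name no groups. They tracked prors1 (LUC) over Col-0 (LUC) computed here (r = 0.997 over 1770 genes, not independent of each other). The deposited base mean was not used.

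The table holds normalized values, so limma 3.58.1 (R 4.3.3) with a trend, planned for that case, replaced edgeR as the main test. It used all 9 libraries, genotype alone, pseudocount 1 and 4766 genes with at least 10 normalized reads in 3 libraries. It was tested on simulated data. Fold changes on this scale understate those of low genes. Count tests on recovered reads used edgeR 4.0.16 (677, 878 and 797 genes called in prors1 (LUC) against Col-0 (LUC), rls6 against Col-0 (LUC) and rls6 against prors1 (LUC)) and DESeq2 1.42.0. Exact permutation tests used scipy 1.17.1. Replicates of a genotype differed beyond counting noise (chi-square per degree of freedom 1.49 to 7.13). Of the identifiers, 37051 matched TAIR10.1 and 285 did not.

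Members and lists were chosen with earlier results of these data known. Named genes were the members, genes overlapping them, 3 related genes, the 3 loci most like each member, neighbours in abundance, and the 10 most abundant other loci overlapping structural RNA genes.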

Additional observations from a re-analysis of the deposited data

How the results depend on the processing

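Log2 fold changes below are of normalized reads + 1. The number of genes called in prors1 (LUC) against Col-0 (LUC) was 685, and it was 363 with DESeq2, 429 with limma without a trend and 127 with no filter and no trend. In rls6 against Col-0 (LUC) it was 841, and 327 with no filter and no trend. In rls6 against prors1 (LUC) it was 802, with 496 by DESeq2 and 208 with no filter and no trend. The last setting and robust shrinkage were chosen after seeing the data. Leaving out 1 library gave 484 to 725, 644 to 907 and 602 to 851 calls in the same order.

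CPA in prors1 (LUC) against Col-0 (LUC) was not called only with no filter and no trend (1.29), and leaving out 1 library gave 0.97 to 1.61. In rls6 against prors1 (LUC) the calls lost had -0.82 (DESeq2), -0.83 (no trend, robust shrinkage, and no filter with no trend) and -0.75 (without rls6 replicate 1), and the leave-one-out fits ranged from -0.94 to -0.75. In rls6 against Col-0 (LUC) these fits gave 0.13 to 0.78. With no filter and a trend, the spread assumed for the 3 loci shrank to between 0.00873 and 0.0236, far under their residual SD, so that fit called CPA in rls6 against Col-0 (LUC) (0.46), AT3G15920 in all 3 comparisons (0.050, 0.28 and -0.23) and AT1G06227 in prors1 (LUC) against Col-0 (LUC) (0.15) and in rls6 against prors1 (LUC) (-0.13). Those calls were not used, and this planned fit is not among the 23 alternatives counted above.

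Signs changed only for values that were not called. In rls6 against Col-0 (LUC), AT3G15920 was -0.081 with total reads as the scale, -0.10 with totals without the 3 loci and -0.041 with upper quartiles. AT1G06227 there was -0.11, -0.13 and -0.072 with these scales, -0.12 with edgeR and -0.13 with DESeq2. Leaving out 1 library gave -0.13 to 0.28 for AT3G15920 and -0.36 to 0.46 for AT1G06227. AT1G06227 ranged from -0.23 to 0.60 in prors1 (LUC) against Col-0 (LUC) and from -0.40 to 0.039 in rls6 against prors1 (LUC), and AT3G15920 from 0.08 to 0.55 and from -0.50 to -0.03. The causes were not tested. Scaling by total reads moved the median of all genes by -0.13 in rls6 against Col-0 (LUC) and -0.13 in prors1 (LUC) against Col-0 (LUC). Totals without the 3 loci moved it by -0.14 in rls6 against Col-0 (LUC) and -0.10 in rls6 against prors1 (LUC).

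Libraries of the same number did not all deviate together (correlations -0.11 to 0.34). Those of different numbers ranged lower, from -0.35 to 0.17, and a batch shared by number was not tested. The labels name no pairs, and the main fit took none. With a replicate block 825 genes were called in prors1 (LUC) against Col-0 (LUC), 967 in rls6 against Col-0 (LUC) and 909 in rls6 against prors1 (LUC). Without the block fewer were called, 685, 841 and 802 in the same order. The block left every call of the 3 loci on its side of the threshold, with CPA at adjusted p = 2.31e-06, 0.0580 and 0.000621 in that order. Requiring the whole structural RNA gene inside the locus gave 3 calls in place of 5 among the other facing loci in rls6 against prors1 (LUC).

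Depth did not limit the 3 loci, whose counting error was under 1%. The facing RNA genes had too few reads to test, and whether depth or the assignment of reads to genes goes with this was not tested.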
